A study of Mus musculus with 20 samples.

Results

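Progesterone is made from cholesterol in a short chain of steps and is taken out of use by a pair of reducing enzymes. The expression of 9 genes of this route was followed in granulosa cells (GCs), the somatic cells lining the wall of the ovarian follicle. They are, along the route, Scarb1 (cholesterol uptake), Star and Tspo (import into mitochondria), Cyp11a1 (side-chain cleavage), Fdx1 and Fdxr (electron supply to Cyp11a1), Hsd3b1 (formation of progesterone), and Akr1c18 and Srd5a1 (breakdown). They were matched by gene symbol and make up 9 of the 55487 gene identifiers in the count tables.

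GCs came from 20 mice. The ctrl line is an unselected outbred line, and the Dummerstorf high-fertility line FL1 goes back to the same founders and has been selected for high fertility. Each line gave 5 mice in estrus, the stage around ovulation with only cornified cells in the vaginal smear, and 5 mice in diestrus, the stage with only leucocytes. The lines are not transgenic, the labels name no treatment, and the mice were 77 ± 5 days old. Each mouse gave 1 sample of the GCs of its 7 to 10 largest follicles. By the study's methods the oocytes and cumulus cells of these follicles were left out. The cells were not sorted, so other cells of the follicle wall could be included. Because FL1 and ctrl are 1 line each, the effect of selection and the drift of closed breeding lines cannot be told apart.

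Steroid hormone synthesis starts when the StAR protein moves cholesterol to the inner membrane of the mitochondrion, where CYP11A1 cuts off the side chain and leaves pregnenolone. Ferredoxin (Fdx1) carries the electrons for this cut from ferredoxin reductase (Fdxr). 3β-Hydroxysteroid dehydrogenase, the product of Hsd3b1, then turns pregnenolone into progesterone. AKR1C18, a 20α-hydroxysteroid dehydrogenase, and SRD5A1, a 5α-reductase, convert progesterone into products that bind its receptor poorly. GCs of growing follicles make mainly estradiol, and the LH surge turns them towards progesterone as they become luteal cells. In rodents Akr1c18 is best known from the corpus luteum, where it ends progesterone output before birth.

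Between 5446576 and 8257041 reads per mouse were counted on genes (median 6457585.5). The library kit reads only the 3′ end of polyadenylated RNA, so a count does not grow with transcript length and levels of different genes can be set side by side. Levels are given as CPM, the reads of a gene scaled to a common library total, after TMM scaling, which corrects for a few genes taking a large share of the reads. Tests are edgeR's quasi-likelihood tests on the counts, fitted over all genes that passed a filter on low counts, and a gene was called differentially expressed at a Benjamini-Hochberg adjusted p of 0.05 or less. All 9 genes passed the filter in each comparison. Since RNA was taken from bulk tissue, fewer cells of a type and less RNA per cell cannot be told apart.

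The cell type was checked on marker lists. The summed level of 8 GC markers was 5372 to 8099 CPM in ctrl and 4465 to 8823 CPM in FL1 mice in estrus, and 7062 to 13245 and 7496 to 14012 CPM in diestrus. Of 6 markers of theca cells, the outer steroid-making layer, Insl3 had no read in 19 of 20 mice. The list reached 356 to 1172 CPM (ctrl, estrus), 509 to 1129 CPM (FL1, estrus), 408 to 869 CPM (ctrl, diestrus) and 637 to 1093 CPM (FL1, diestrus). Aldh1a1 made up most of this sum, with means of 674, 708, 405 and 682 CPM in the same order. Reads of 6 oocyte markers were found in every group, so oocyte RNA was not absent. Their sums were 97.2 to 475 CPM (ctrl, estrus), 150 to 448 CPM (FL1, estrus), 50.4 to 465 CPM (ctrl, diestrus) and 69.2 to 493 CPM (FL1, diestrus). The sums of 4 smooth muscle markers were 222 to 824, 459 to 1164, 179 to 537 and 63.9 to 1140 CPM in the same order. Markers of luteal, blood, vessel and stromal cells are given beside the results they move with.

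Hsd3b1 was the most abundant and Srd5a1 the least abundant of the 9 transcripts in all 4 groups. The place of Akr1c18 varied most. It ranked 7 in ctrl mice in estrus and 3 in FL1 mice in estrus, 5 in ctrl mice in diestrus and 4 in FL1 mice in diestrus. Most neighbours in these orders overlapped over the 5 mice. Tspo and Srd5a1, the last pair, did not overlap in any group. Hsd3b1 did not overlap with the gene next to it except in FL1 mice in estrus, where replicate 2 had more Cyp11a1 than Hsd3b1. In FL1 mice Fdxr and Tspo also did not overlap in either stage, nor did Star and Fdxr in estrus. Scarb1 was the steadiest transcript in estrus, with a coefficient of variation of 7.36% in ctrl and 7.06% in FL1 mice. Among FL1 mice in estrus Fdx1 (80.4%), Cyp11a1 (75.2%) and Akr1c18 (67.3%) varied most, and in diestrus Akr1c18 (94.8%) and Cyp11a1 (79.5%).

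**Figure D1:**
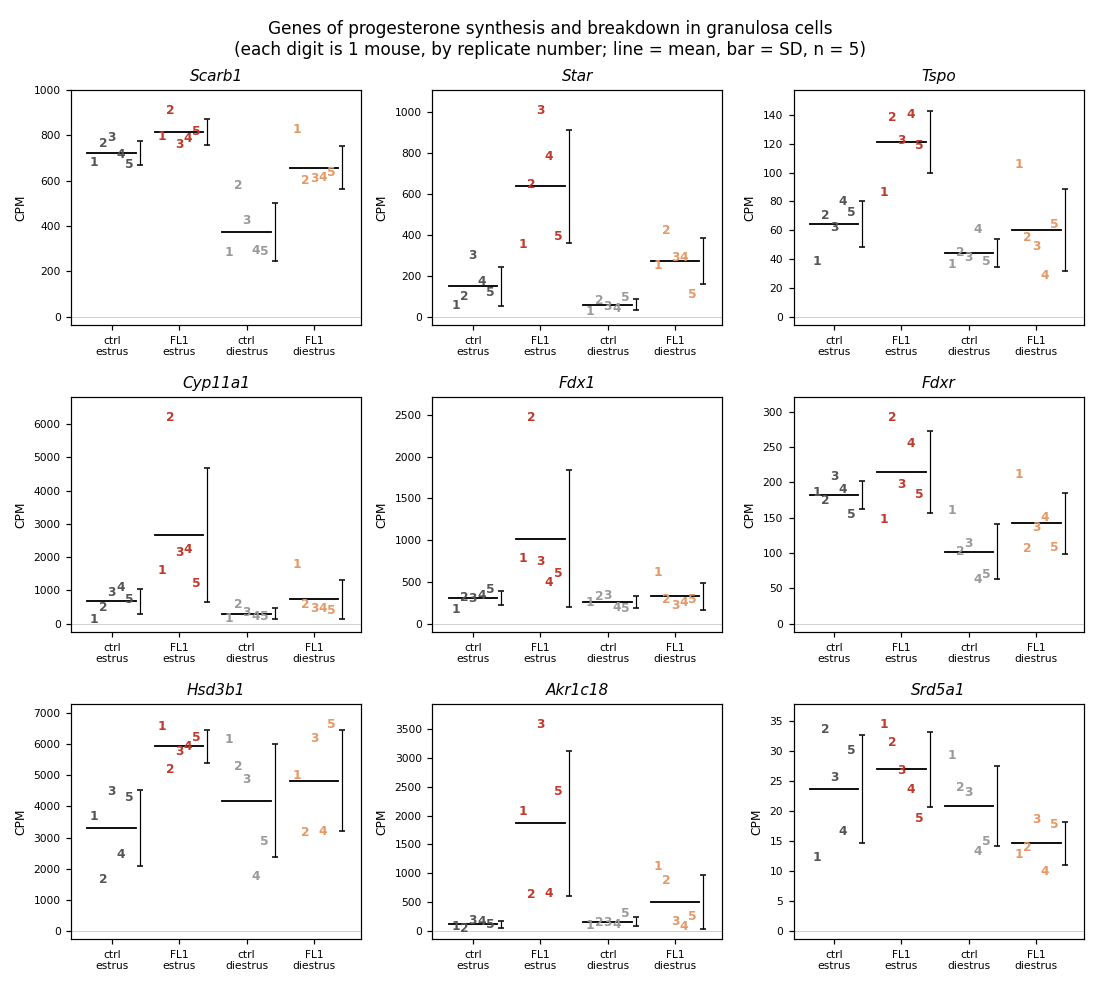
Level of each of the 9 genes in CPM on a linear axis from 0, by line and stage. Each digit is 1 mouse, printed at its level by its replicate number, the horizontal line is the mean and the bar the SD over 5 mice. For Star, Tspo, Cyp11a1, Fdx1, Hsd3b1 and Akr1c18 all 5 FL1 mice in estrus lie above all 5 ctrl mice in estrus, and Star and Scarb1 show the same in diestrus.

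In estrus 3 of the 9 genes, Star, Fdx1 and Akr1c18, were higher in FL1 GCs than in ctrl GCs and none was lower, where 0.415% of the 13007 genes tested were called higher. All 9 fitted differences were above 0, with a median log2 difference of 0.91 for the 9 genes against 0.00541 for all genes tested. An unadjusted p under 0.05 with a higher level in FL1 mice was found for 6 of the 9 genes and for 5.47% of all genes. The same 6 genes had no overlap between the lines, all FL1 mice lying above all ctrl mice, which held for 1.85% of all genes. In diestrus 1 gene, Star, was called, against 0.0931% of 12886 genes called higher. There 4 of the 9 genes (Scarb1, Star, Cyp11a1 and Akr1c18) had an unadjusted p under 0.05 and a higher level in FL1 mice, against 3.09% of all genes, and 2 of the 9 (Scarb1 and Star) had no overlap, against 0.823% of all genes. The median difference was 0.48 for the 9 genes and 0.0113 for all genes. The comparisons in estrus and in diestrus share no mouse.

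Promoter sequence is shown for Akr1c18 and Fdx1, called in estrus, and for Cyp11a1, the enzyme that Fdx1 serves. The set of RefSeq (GRCm38.p6) promoter windows used here covered 6 of the 9 genes, with 7 windows in all and 2 starts for Cyp11a1. It held none for Scarb1, Star or Tspo, which does not mean that RefSeq lacks a start for them. Given are the 250 bases before the start, 5′ to 3′ on the gene's strand. Capitals mark matches to any of the motifs searched on both strands.
Akr1c18, chr13:4150647-4150896, minus strand: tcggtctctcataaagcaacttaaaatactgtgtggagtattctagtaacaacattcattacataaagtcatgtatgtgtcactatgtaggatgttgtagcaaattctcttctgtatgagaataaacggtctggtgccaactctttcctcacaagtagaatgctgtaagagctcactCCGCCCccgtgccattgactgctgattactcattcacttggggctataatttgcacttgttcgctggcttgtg
Fdx1, chr9:51963603-51963852, minus strand: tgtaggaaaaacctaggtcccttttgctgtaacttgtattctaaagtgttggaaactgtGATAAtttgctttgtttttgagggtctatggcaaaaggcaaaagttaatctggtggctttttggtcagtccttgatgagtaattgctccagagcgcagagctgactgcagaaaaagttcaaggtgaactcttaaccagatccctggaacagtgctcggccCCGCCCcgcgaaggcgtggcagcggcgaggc
Cyp11a1, the downstream start, chr9:58014702-58014951, plus strand: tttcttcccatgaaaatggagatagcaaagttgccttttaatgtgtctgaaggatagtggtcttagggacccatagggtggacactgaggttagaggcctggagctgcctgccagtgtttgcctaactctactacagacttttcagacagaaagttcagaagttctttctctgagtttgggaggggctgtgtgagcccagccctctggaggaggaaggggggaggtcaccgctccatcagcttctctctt
The motifs were the NR5A site CAAGGTCA and its core AAGGTCA, which lies within it, the cAMP response core TGACG, the GATA core GATAA, the TATA box TATAAA and the Sp1 box GGGCGG. NR5A proteins are the best-known activators of steroid enzyme genes. Over the whole windows, which also hold 50 bases past the start, neither NR5A motif nor TATAAA was found in any of the 7 windows, while 1.56%, 4.72% and 13.6% of 32851 RefSeq windows hold them. GGGCGG was found in 5 of 7 windows (35.7% of all), GATAA in 3 of 7 (25.4%) and TGACG in 1 of 7 (20.8%). In Akr1c18 the capitals are 1 Sp1 box on the opposite strand, starting 73 bases before the start, and in Fdx1 a GATA core starting at 191 and an Sp1 box on the opposite strand at 31 bases before it. The Cyp11a1 stretch shown holds no match. The window at its upstream start, not shown, holds the 1 TGACG of the 7 windows, on the opposite strand 50 bases before the start, and an Sp1 box just past the start. Such matches are letters in a window and say nothing about binding. Only these exact spellings were searched, so other forms of the motifs were not counted.

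Scarb1 (ENSMUSG00000037936, GRCm38 chr5:125277087-125341094, minus strand) encodes the HDL receptor SR-BI, through which ovarian cells take up cholesterol esters. In estrus Scarb1 was at 679, 766, 792, 714 and 669.8 CPM in the 5 ctrl mice (replicates 1 to 5) and at 795, 910.0, 760.5, 786 and 816 CPM in the 5 FL1 mice. The diestrus levels were 282, 579, 423, 292 and 289 CPM in ctrl and 827, 602, 609, 613 and 636 CPM in FL1 mice. The lines overlapped in estrus. In diestrus all FL1 mice lay above all ctrl mice. The log2 difference between FL1 and ctrl was 0.17 in estrus (95% interval -0.16 to 0.49, adjusted p = 0.804, edgeR) and 0.83 in diestrus (0.36 to 1.30, adjusted p = 0.272). With DESeq2 the adjusted p in diestrus was 0.0263.

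Star (ENSMUSG00000031574, chr8:25806555-25815982, plus strand) sets the pace of steroid synthesis by moving cholesterol into the mitochondrion. The 5 ctrl mice in estrus (replicates 1 to 5) had 55.1, 98.1, 301, 171 and 117 CPM of Star, and the 5 FL1 mice had 351, 647, 1009, 785 and 393 CPM. Ctrl mice in diestrus had 26.2, 76.8, 51.6, 39.1 and 94.4 CPM, and FL1 mice 251, 420.4, 288, 289 and 109.3 CPM. In both stages the highest ctrl mouse lay below the lowest FL1 mouse. Star was higher in the FL1 line in both stages, by a log2 difference of 2.10 (SE 0.38, 4.29-fold) in estrus and 2.25 (SE 0.36, 4.74-fold) in diestrus. The adjusted p was 0.0106 in estrus and 0.00899 in diestrus (edgeR), and Star was called in all 20 fits that each left out 1 mouse. With robust estimation of the spread the adjusted p in estrus was 0.0656.

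Tspo (ENSMUSG00000041736, chr15:83563592-83574203, plus strand) encodes a cholesterol-binding protein of the outer mitochondrial membrane. For Tspo, 38.3, 70.2, 61.9, 79.8 and 72.3 CPM were measured in estrus in ctrl mice 1 to 5 and 86.2, 138, 122, 141 and 119 CPM in FL1 mice 1 to 5. For diestrus the values were 36.4, 44.7, 40.8, 60.7 and 38.5 CPM in ctrl and 105.7, 55.2, 48.6, 28.6 and 63.9 CPM in FL1 mice. All FL1 mice lay above all ctrl mice in estrus, and the lines overlapped in diestrus, where FL1 mice held both the highest and the lowest value. The log2 difference was 0.91 in estrus (SE 0.22, adjusted p = 0.0668, edgeR) and 0.46 in diestrus (adjusted p = 1.00), so neither was called. DESeq2 gave an adjusted p of 0.0120 in estrus. Mcat lies on the other strand within the Tspo locus, with 1969 reads over all mice against 9753 on Tspo, and the strand setting of the counting is not given in the sources used here.

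Cyp11a1 (ENSMUSG00000032323, chr9:58006411-58027023, plus strand) encodes the enzyme that commits cholesterol to steroid synthesis. In estrus Cyp11a1 was at 123, 487, 937, 1078 and 716 CPM in the 5 ctrl mice (replicates 1 to 5) and at 1589.7, 6196, 2127, 2244 and 1214 CPM in the 5 FL1 mice. The diestrus levels were 162, 573, 331, 214 and 223 CPM in ctrl and 1766, 575, 452, 453 and 411 CPM in FL1 mice. All FL1 mice lay above all ctrl mice in estrus, with FL1 replicate 2 far above the others, and in diestrus, where the lines overlapped, FL1 replicate 1 stood far above all other mice. The log2 difference in estrus was 1.999 (SE 0.47) with an adjusted p of 0.0563 (edgeR), just outside the threshold. It was 1.29 in diestrus (adjusted p = 0.490), and 0.66 without FL1 replicate 1. DESeq2 (adjusted p = 0.0424) and the fit without FL1 replicate 5 (0.0439) called Cyp11a1 in estrus. Short stretches near its 3′ end match Gm17322, Ankrd40, Tmem234 and Slc23a1, and reads placed in several genes were not counted.

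Fdx1 (ENSMUSG00000032051, chr9:51943306-51963556, minus strand) encodes ferredoxin, the direct electron donor of CYP11A1. The 5 ctrl mice in estrus (replicates 1 to 5) had 174, 313, 298, 341 and 414 CPM of Fdx1, and the 5 FL1 mice had 781, 2468, 742, 492 and 606 CPM. Ctrl mice in diestrus had 256, 323, 333, 196 and 186 CPM, and FL1 mice 616, 289, 213, 251 and 285 CPM. All FL1 mice lay above all ctrl mice in estrus and the lines overlapped in diestrus. The highest mice of both FL1 groups were the same as for Cyp11a1, replicate 2 in estrus and replicate 1 in diestrus. Fdx1 was higher expressed in FL1 mice in estrus, with a log2 difference of 1.72 (SE 0.37, 3.30-fold, adjusted p = 0.0327, edgeR), and the difference in diestrus was 0.36 (adjusted p = 1.00). Without FL1 replicate 2 the estrus difference was 1.09 (adjusted p = 0.0356). The call was lost when ctrl replicate 1, 2, 3 or 4 or FL1 replicate 1 was left out, with adjusted p of 0.0528 to 0.0828, and with robust estimation (0.110).

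Fdxr (ENSMUSG00000018861, chr11:115268024-115277050, minus strand) encodes the reductase that loads ferredoxin with electrons from NADPH. For Fdxr, 185, 174, 208, 189 and 155 CPM were measured in estrus in ctrl mice 1 to 5 and 148, 292, 197, 255 and 182 CPM in FL1 mice 1 to 5. For diestrus the values were 159.9, 102.7, 113.9, 63.1 and 69.8 CPM in ctrl and 211, 105.9, 136, 150.2 and 107.1 CPM in FL1 mice. The lines overlapped in both stages. The log2 difference was 0.23 in estrus (-0.19 to 0.65, adjusted p = 0.770, edgeR) and 0.48 in diestrus (-0.09 to 1.06, adjusted p = 0.999).

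Hsd3b1 (ENSMUSG00000027871, chr3:98852194-98859794, minus strand) encodes the dehydrogenase that completes progesterone. In estrus Hsd3b1 was at 3676, 1655, 4478, 2447 and 4279 CPM in the 5 ctrl mice (replicates 1 to 5) and at 6583, 5182, 5770.2, 5922 and 6212 CPM in the 5 FL1 mice. The diestrus levels were 6162, 5296, 4865, 1747 and 2865 CPM in ctrl and 5007, 3148, 6175, 3209.7 and 6630.0 CPM in FL1 mice. In estrus the 5 FL1 mice lay close together, with a coefficient of variation of 8.80% against 36.8% in ctrl mice, and above every ctrl mouse, while in diestrus the lines overlapped. The log2 difference was 0.84 in estrus (SE 0.23, adjusted p = 0.108, edgeR) and 0.21 in diestrus (adjusted p = 1.00). DESeq2 gave an adjusted p of 0.00824 in estrus. The 3′ end of Hsd3b1 shares 144 aligned bases at 92.361% identity with Hsd3b2, which had no read in any mouse, and reads with several matches were not counted.

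Akr1c18 (ENSMUSG00000021214, chr13:4132615-4150654, minus strand) encodes the 20α-hydroxysteroid dehydrogenase that inactivates progesterone. The 5 ctrl mice in estrus (replicates 1 to 5) had 70.2, 39.1, 184, 165 and 117 CPM of Akr1c18, and the 5 FL1 mice had 2079.6, 625, 3581, 643 and 2414 CPM. Ctrl mice in diestrus had 97.4, 138, 141, 114.3 and 306 CPM, and FL1 mice 1112, 877, 168, 71.9 and 241 CPM. In estrus the lowest FL1 mouse lay far above the highest ctrl mouse. In diestrus FL1 replicates 1 and 2 stood above all ctrl mice, replicates 3 and 5 within the ctrl range and replicate 4 below it. Akr1c18 had the largest line difference of the 9 genes in estrus, with a log2 difference of 4.02 (SE 0.50, 16.2-fold, adjusted p = 3.06e-04, edgeR), and ranked 10 by p among the 13007 genes tested. The estrus difference lay between 3.66 and 4.26 when any 1 mouse was left out, and each of these 10 fits called it. In diestrus it was 1.64 (SE 0.57, adjusted p = 0.592), which was not called.

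Srd5a1 (ENSMUSG00000021594, chr13:69573449-69611442, minus strand) encodes the 5α-reductase type 1. For Srd5a1, 12.2, 33.6, 25.5, 16.6 and 30.1 CPM were measured in estrus in ctrl mice 1 to 5 and 34.4, 31.3, 26.7, 23.6 and 18.7 CPM in FL1 mice 1 to 5. For diestrus the values were 29.3, 24.0, 23.1, 13.3 and 14.8 CPM in ctrl and 12.8, 14.0, 18.6, 9.89 and 17.7 CPM in FL1 mice. The lines overlapped in both stages. The log2 difference was 0.19 in estrus (-0.52 to 0.90, adjusted p = 0.925, edgeR) and -0.51 in diestrus (-1.27 to 0.25, adjusted p = 1.00). Srd5a1 had 2891 reads over all mice. Nsun2, on the other strand and overlapping it, had 13326.

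**Figure D2:**
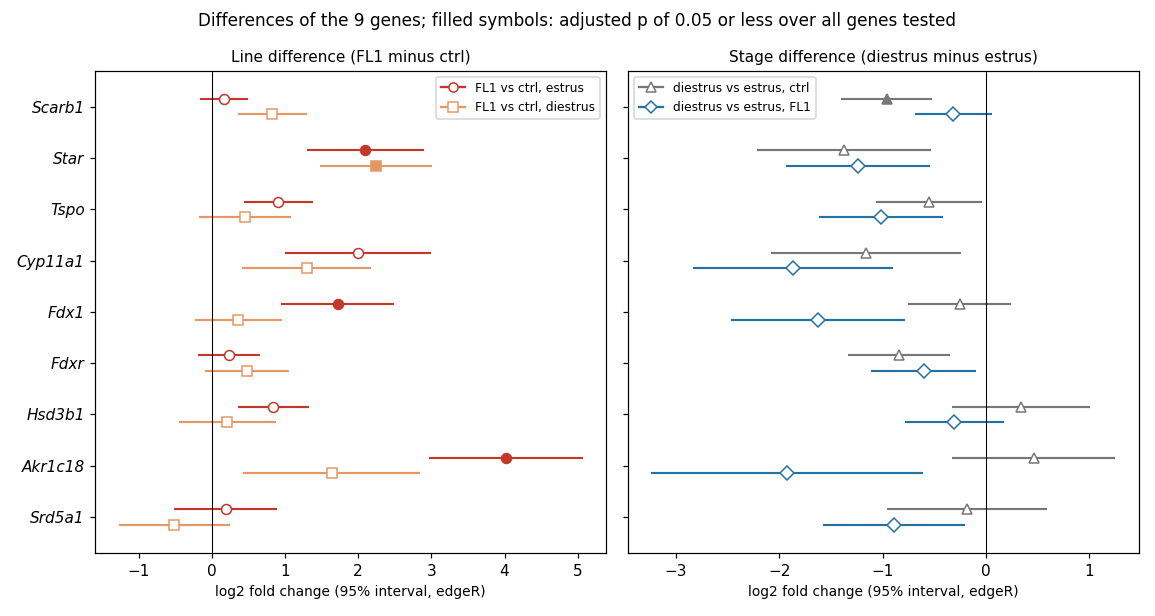
Fitted log2 differences of the 9 genes with 95% intervals from edgeR, between the lines (left, FL1 minus ctrl, circles for estrus and squares for diestrus) and between the stages (right, diestrus minus estrus, triangles for ctrl and diamonds for FL1). Filled symbols have an adjusted p of 0.05 or less over all genes tested. Star is filled in both stages, Fdx1 and Akr1c18 in estrus, and Scarb1 in the stage comparison of ctrl mice.

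Most markers of luteal cells differed between the lines in the direction of these genes. Cdkn1b went the other way, with means of 259 CPM in ctrl and 226 CPM in FL1 mice in estrus and 241 and 173 CPM in diestrus. In diestrus edgeR called none of the 6. There 3 were higher in FL1 mice and 1, Cdkn1b, lower at an unadjusted p under 0.05, against 3.09% and 2.47% of all genes. In estrus 3 of 6 luteal markers were called higher in FL1 mice (Akr1c18 itself, Lhcgr and Prlr), against 0.415% of all genes, and 5 of 6 had no overlap, against 1.85% of all genes. Without Akr1c18 the summed level of the other 5 was 347 to 696 CPM in ctrl and 974 to 2497 CPM in FL1 mice in estrus, and 542 to 828 and 452 to 2173 CPM in diestrus. By this sum the highest mice were FL1 replicate 2 in estrus and FL1 replicate 1 in diestrus. These mice also stood out for Cyp11a1 and Fdx1. In estrus this held only without Akr1c18, of which FL1 replicate 2 had the lowest level of its group (625 CPM). With Akr1c18 its luteal sum was 3121 CPM, below FL1 replicates 3 (4555 CPM) and 5 (3525 CPM). Of 6 macrophage and leukocyte markers 4 were tested in estrus, where 1 had an unadjusted p under 0.05 and edgeR called 0, with summed levels of 15.01 to 42.2 CPM in ctrl and 35.3 to 98.2 CPM in FL1 mice. In diestrus the sums were 7.67 to 15.9 and 9.89 to 68.6 CPM. Over both stages edgeR called Lyz2 of this list higher in FL1 mice (2.09, adjusted p = 0.00226). No luteal, macrophage or leukocyte marker was at 0 in a whole group. Red blood cell, endothelial and stromal markers had no gene called by edgeR in any line comparison, but all 3 erythroid, all 5 endothelial and all 5 stromal markers had fitted line differences above 0 over both stages. An unadjusted p under 0.05 was found there for 3 erythroid, 1 endothelial and 3 stromal markers, against 6.06% of all genes higher. The erythroid sum was 178 to 551 CPM in ctrl and 271 to 911 CPM in FL1 mice in estrus, and 42.3 to 264 and 111.3 to 1292 CPM in diestrus. The endothelial sums were 19.0 to 47.6 and 21.2 to 79.2 CPM in estrus and 9.81 to 33.7 and 29.3 to 83.3 CPM in diestrus, and the stromal sums 385 to 859 and 533 to 1170.5 CPM and 99.6 to 491 and 72.3 to 901 CPM. The part of all these cells in the line differences was not tested.

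**Figure D3:**
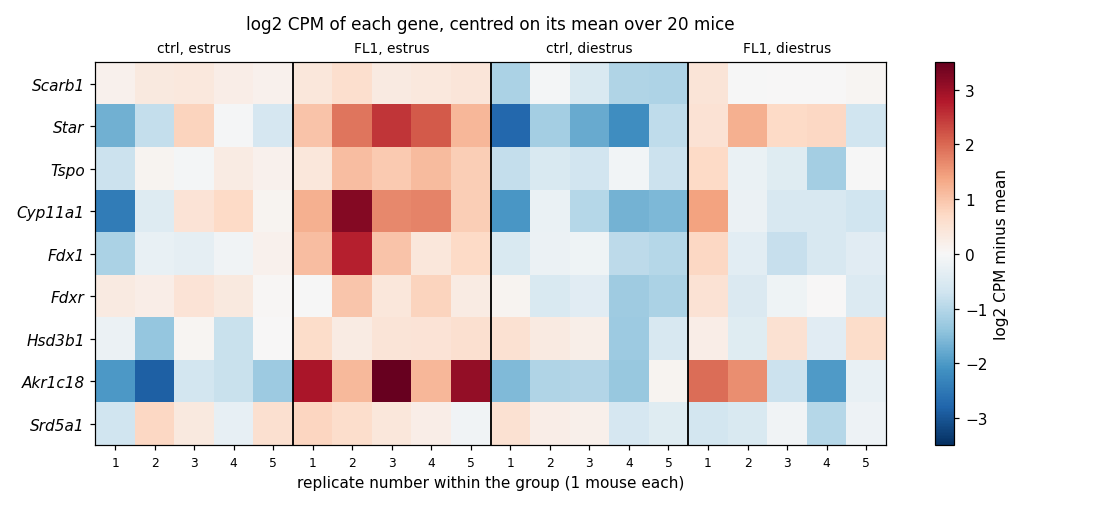
Heat map of log2 CPM for each gene (rows, in the order of the route) and mouse (columns, by group and replicate number), centred on the gene's mean over 20 mice. Red is above and blue below that mean. The FL1 mice in estrus are red for nearly all genes, with the strongest fields for Akr1c18, Cyp11a1, Fdx1 and Star, and FL1 replicate 1 in diestrus is red for all genes except Srd5a1.

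With the stage as a covariate, FL1 and ctrl mice were also compared over both stages. This fit uses the same 20 mice and adds no independent evidence. It called 3 of the 9 genes higher in FL1 mice, against 0.669% of 14938 genes, namely Star (2.17, adjusted p = 2.54e-05), Akr1c18 (2.83, 0.00164) and Cyp11a1 (1.64, 0.0107, edgeR). Each kept its call in all 20 fits without 1 mouse. With robust estimation Cyp11a1 had an adjusted p of 0.0788. For 8 of the 9 genes the unadjusted p was under 0.05 with a higher level in FL1 mice, against 6.06% of all genes. The exception was Srd5a1, at -0.16 (-0.67 to 0.35). Fdx1, called in estrus alone, was at 1.04 (adjusted p = 0.0695).

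Whether a line difference itself changed between the stages was tested by the interaction of line and stage. None of the 9 genes was called by edgeR or by DESeq2, as 0% of 14938 genes were, and an unadjusted p under 0.05 was found for 3 of the 9 genes and 4.75% of all genes. The line difference in diestrus minus that in estrus was -2.39 on the log2 scale for Akr1c18 (SE 0.79, adjusted p = 0.933), and -1.37 for Fdx1 (SE 0.49, 0.956), or -0.73 for Fdx1 without FL1 replicate 2 in estrus. For Scarb1 it was 0.65 (SE 0.27, 0.999). For Star the interaction was 0.13 with an interval of -0.99 to 1.25. A change of the line difference between the stages was therefore not shown for any of the 9 genes. In a fit without the filter on low counts Akr1c18 had an adjusted p of 0.0439.

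Within the ctrl line, the stages differed for 1 of the 9 genes. Scarb1 was lower in diestrus than in estrus, with a log2 difference of -0.96 (SE 0.21, adjusted p = 0.0293, edgeR), against 0.576% of 12850 genes called lower, and the 5 mice of each stage did not overlap. An unadjusted p under 0.05 with a lower level in diestrus was found for 5 of the 9 genes and for 5.85% of all genes. Beside Scarb1 these were Star (-1.37, adjusted p = 0.123), Fdxr (-0.84, 0.100), Cyp11a1 (-1.16, 0.263) and Tspo (-0.55, 0.368). Hsd3b1 (0.34, 0.784) and Akr1c18 (0.46, 0.730) had fitted values above 0. The call of Scarb1 was kept only without ctrl replicate 5 in estrus or replicate 2 in diestrus, and was lost in the other 8 fits without 1 mouse, with adjusted p up to 0.0962. It held under all 6 other settings. Of the 5 stromal markers all had fitted values below 0 in diestrus and 4 an unadjusted p under 0.05, with a median log2 difference of -1.34. Of the 8 GC markers 2, Fshr (1.71) and Fst (1.28), were called higher in diestrus, against 0.786% of all genes. Amhr2 (-0.96) was the 1 called lower, against 0.576%. The summed GC markers were 5372 to 8099 CPM in estrus and 7062 to 13245 CPM in diestrus, and the part of these cells in the stage difference was not tested.

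Within the FL1 line, none of the 9 genes was called between the stages by edgeR, against 0.145% of 13114 genes called lower in diestrus, while DESeq2 called Star (adjusted p = 0.00994) and Tspo (0.0424). All 9 fitted differences were below 0, with a median of -1.01 against 0.0118 for all genes. An unadjusted p under 0.05 with a lower level in diestrus was found for 7 of the 9 genes and for 4.96% of all genes. The values were -1.93 for Akr1c18 (adjusted p = 0.243), -1.87 for Cyp11a1 (0.0969), -1.62 for Fdx1 (0.0992), -1.24 for Star (0.136) and -1.01 for Tspo (0.158). Srd5a1 was at -0.89 (0.333), with no overlap between the stages, and Fdxr at -0.60 (0.396). Without FL1 replicate 1 in diestrus, 3 of the 9 genes were called lower in diestrus, namely Tspo (-1.32, adjusted p = 0.0133), Cyp11a1 (-2.51, 0.00418) and Fdx1 (-1.98, 0.0156), where 0.803% of 13580 genes were called lower in that fit. Without FL1 replicate 2 in estrus the difference of Fdx1 was -1.001 (adjusted p = 0.246). Of 6 luteal markers, a list that holds Akr1c18 itself, 5 had fitted values below 0 (median -0.63). Of these 2, Akr1c18 among them, had an unadjusted p under 0.05. All 5 stromal markers had fitted values below 0, 0 of them with such a p (median -0.55). Of 8 GC markers 4 had an unadjusted p under 0.05 and a higher level in diestrus (median 0.57), against 4.52% of all genes. The part of these cells was not tested. The stage comparisons share their mice with the line comparisons.

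**Figure D4:**
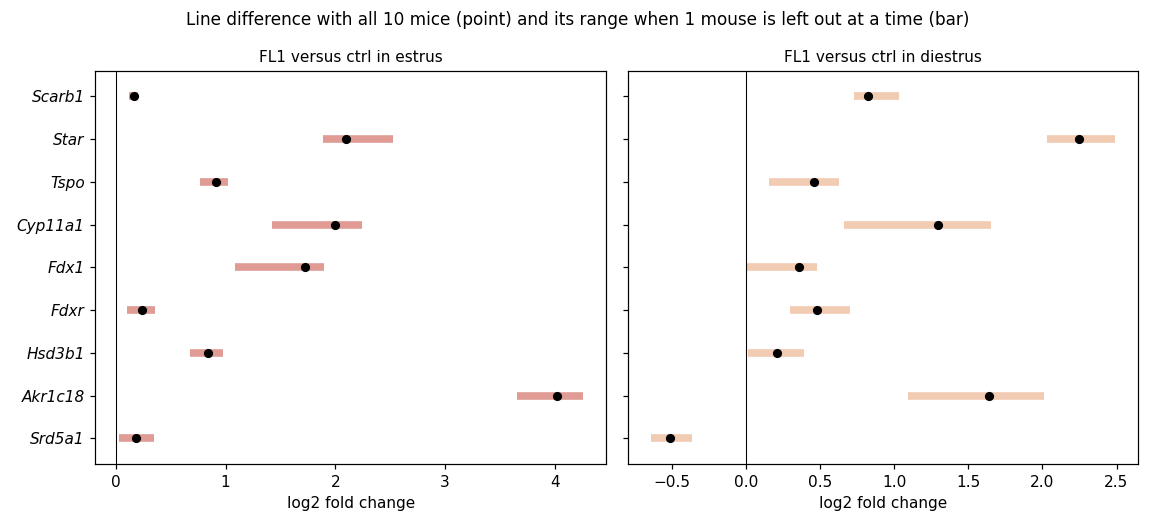
Log2 difference between FL1 and ctrl mice for each gene in estrus (left) and diestrus (right). Points are the fits with all 10 mice of the stage, and bars span the lowest to the highest value when 1 mouse is left out at a time. In estrus every bar stays above 0, and the bars of Fdx1 and Cyp11a1 are the longest and reach down to 1.09 and 1.42.

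Around the 9 genes, 55 other genes of sterol supply, mitochondrial entry, steroid enzymes, breakdown, regulation and progesterone receptors were counted. In estrus 43 of them were tested and 3 were called higher in FL1 mice, against 0.415% of all genes, and none lower, with a median log2 difference of -0.0351. In diestrus 41 were tested and edgeR called none, with 4 higher (3.09% of all genes) and 1 lower at an unadjusted p under 0.05. Over both stages 3 of 43 were called higher, against 0.669% of all genes, and none lower. Between the stages 4 of 41 were called higher in diestrus in ctrl mice, against 0.786% of all genes, and none lower, and none of 42 was called in FL1 mice, with 6 higher and 4 lower at an unadjusted p under 0.05, against 4.52% and 4.96% of all genes. The interaction called none of 43, with 3 positive and 4 negative at an unadjusted p under 0.05, against 4.75% of all genes in either direction. DESeq2 called 1 of the list in diestrus, 4 between the stages in FL1 mice and 0 for the interaction.

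Nceh1, a hydrolase that frees stored cholesterol from its esters, had 60.2, 77.7, 84.0, 74.4 and 65.4 CPM in the ctrl and 181, 143, 100.9, 171 and 159 CPM in the FL1 mice in estrus. The lines did not overlap there, and the log2 difference of Nceh1 was 1.06 (SE 0.20, adjusted p = 0.0138, edgeR). In ctrl mice it was higher in diestrus than in estrus by 0.83 (SE 0.18, adjusted p = 0.0271), and over both stages the line difference was 0.69 (0.0412). The estrus call held in all 10 fits without 1 mouse. The stage call held in 3 of 10 such fits, those without ctrl replicate 3 in estrus or replicate 1 or 2 in diestrus, with adjusted p up to 0.0789, and was lost in a fit of all 20 mice (0.0704). The call over both stages held in 7 of 20, with adjusted p up to 0.101.

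The receptors for LH, prolactin and prostaglandin F2α act on this route from outside the cell. Lhcgr, the LH receptor, had 4.95, 4.81, 35.9, 8.98 and 29.6 CPM in ctrl and 74.1, 414, 58.8, 44.1 and 97.2 CPM in FL1 mice in estrus. All FL1 mice lay above all ctrl mice, with FL1 replicate 2 far above the others, and the log2 difference was 3.02 (SE 0.65, adjusted p = 0.0327, edgeR). Without FL1 replicate 2 it was 2.02 (adjusted p = 0.105), and the call of Lhcgr was also lost without ctrl replicate 1, 2 or 4 (0.0738 to 0.0873) and with robust estimation (0.214). Prlr, the prolactin receptor, had 94.8, 96.7, 148, 178 and 232 CPM and 389, 1634, 287, 527 and 509.9 CPM, and its difference was 2.16 (SE 0.40, adjusted p = 0.0118). Without FL1 replicate 2 the difference of Prlr was 1.51 (adjusted p = 0.0102, edgeR), and with robust estimation its adjusted p was 0.0767. Neither was called in diestrus, where the differences were 0.64 for Lhcgr (1.00) and 0.45 for Prlr (1.00). Over both stages Prlr (1.30, 0.0435) and Ptgfr, the prostaglandin F2α receptor (1.96, 0.00573), were called higher and Lhcgr was not (1.82, 0.106). Ptgfr had 18.9, 1.86, 32.0, 49.3 and 62.3 CPM in ctrl and 96.7, 110.6, 186, 114.6 and 113.5 CPM in FL1 mice in estrus, without overlap. Its difference was 1.92 in estrus (adjusted p = 0.0946) and 2.01 in diestrus (0.203), so that edgeR called it in neither stage alone. The call over both stages held in all 20 fits without 1 mouse for Ptgfr and in 6 of 20 for Prlr, whose adjusted p reached 0.0993. With robust estimation both calls over both stages were lost (adjusted p = 0.0510 for Ptgfr and 0.151 for Prlr, edgeR).

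The genes that were higher in diestrus than in estrus in ctrl mice, beside Nceh1, were Cyp17a1, Nr0b1 and Foxo1. Cyp17a1, the enzyme that takes progesterone on towards androgens and is best known from theca cells, had 10.3, 9.46, 9.27, 12.1 and 11.8 CPM in estrus and 43.9, 232, 106.6, 82.5 and 11.5 CPM in diestrus (3.16, SE 0.54, adjusted p = 0.00690, edgeR). The stages overlapped by ctrl replicate 5 in diestrus, and without replicate 2 in diestrus the difference of Cyp17a1 was 2.53. Nr0b1, a repressor of steroid enzyme genes, was at 3.01 ± 2.52 CPM and 26.1 ± 8.30 CPM (SD, n = 5), without overlap. Its log2 difference was 3.10 (adjusted p = 0.00977, edgeR), or 3.73 without ctrl replicate 1 in estrus, and in a fit of all 20 mice its adjusted p was 0.0623. Foxo1, a transcription factor that is active when growth factor signals are low, was at 1076 ± 100.7 and 2128 ± 478 CPM (SD, n = 5), also without overlap. Its difference was 0.98 (adjusted p = 0.0143, edgeR). In FL1 mice the same differences were 2.02 for Cyp17a1 (0.314), 2.49 for Nr0b1 (0.396) and 0.94 for Foxo1 (0.104).

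Cyp19a1, the aromatase that makes estradiol, was not called in any comparison, with line differences of 0.36 in estrus (-0.54 to 1.25) and 0.20 in diestrus (-1.04 to 1.44). Its level spread from 5.09 to 225 CPM over the ctrl mice in diestrus. Of the other 5α-reductase genes, Srd5a3 was at 42.2 to 58.0 CPM in ctrl and 34.1 to 52.6 CPM in FL1 mice in estrus and was not called, and Srd5a2 did not pass the filter, with at most 0.157 CPM in any mouse. Pgr, the nuclear progesterone receptor, did not exceed 5.63 CPM in any mouse and was not called where it was tested. Its line difference in estrus was 0.80 with an interval of -2.47 to 4.07, so that no difference was detectable at this depth.

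**Figure D5:**
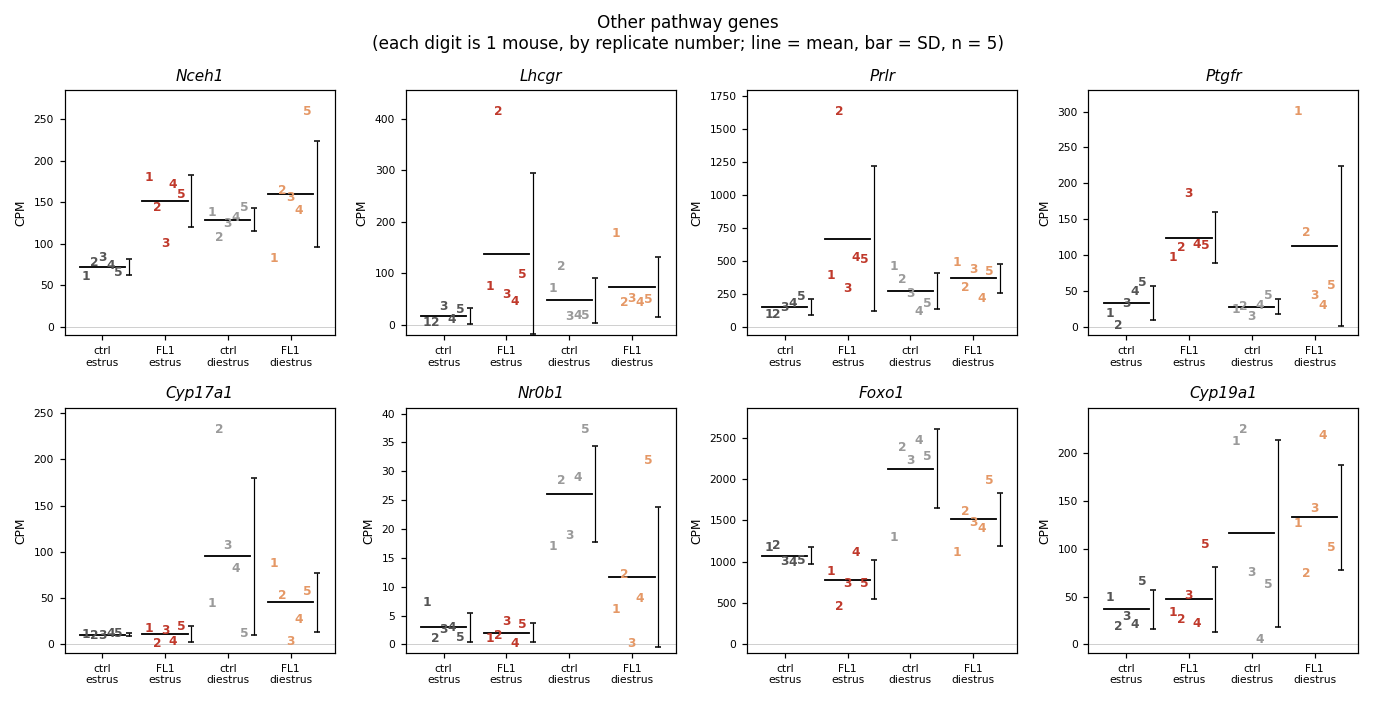
Level in CPM of the 7 other pathway genes that were called in at least 1 comparison and of Cyp19a1, drawn as for the 9 genes, with 1 digit per mouse, the mean as a line and the SD as a bar. Nceh1, Lhcgr, Prlr and Ptgfr show the FL1 mice in estrus above all ctrl mice in estrus, and Nr0b1 and Foxo1 the ctrl mice in diestrus above those in estrus.

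As a description, the genes whose levels followed Star, Hsd3b1 and Akr1c18 most closely over the 20 mice were looked up among 14938 genes. The measure was the root mean square difference in log2 CPM after centring each gene on its own mean. For Star the nearest were Efhd1 (0.72), Maf (0.77) and Abcb1b (0.78), where the median over all genes was 1.64. For Hsd3b1 they were Smim10l2a (0.40), Tcf4 (0.42) and Cfap36 (0.43), with a median of 0.98. For Akr1c18 they were Klhl30 (0.99), Ptgfr (1.01) and S100a6 (1.11), with a median of 1.97. The 20 mice share line and stage, so that a likeness here includes the difference between the groups.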

How the data were processed

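Granulosa cells of 20 mice (4 groups of 5) were profiled by 3′ end RNA sequencing. The authors aligned reads with STAR to GRCm38 and deposited raw read counts per Ensembl gene, in which reads with several matches are not included. The strand setting is not given in the sources used here, and the labels and the study's methods name different RNA extraction kits. The 4 lines per file that name no gene were left out of library sizes and tests, and 48.9 to 58.4% of reads were counted on genes. Gene names came from GENCODE M21 (55227 of 55487 identifiers matched, 260 not), and no 2 samples held identical counts. Each sample is 1 mouse.

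Counts were analysed with edgeR 4.0.16 in R 4.3.3: TMM, a filter on low counts (filterByExpr, minimum count 10, minimum total 15, share 0.7), the quasi-likelihood test and Benjamini-Hochberg adjustment over all genes tested, with a threshold of 0.05. Lines were compared within each stage and stages within each line (10 mice each), and the interaction and the line difference adjusted for stage were fitted over 20 mice. Intervals are 95% intervals, and log2 CPM used a prior count of 2. Alternatives were RLE size factors, no filter, DESeq2 1.42.0, robust estimation, the replicate number as a block, 1 fit of all 20 mice, and leaving out each mouse. The scripts were tested on simulated data. Near copies were searched with BLAST 2.17.0 in the last 500 bases of transcripts (at least 90% identity over 100 bases). Python 3.11.15 with pandas 2.3.3, NumPy 2.4.6 and matplotlib 3.10.9 was used for tables and plots.

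The 9 genes, the 55 other pathway genes and the marker lists were chosen with earlier results of these data known. Named are all 9 genes, pathway genes called in any comparison or preset (Cyp17a1, Cyp19a1, Lhcgr, Prlr, Pgr, Srd5a2, Srd5a3), and the 3 genes most like Star, Hsd3b1 and Akr1c18.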

Additional observations from a re-analysis of the deposited data

Results flagged for a closer look

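In 6 of the 36 groups of 5 mice formed by the 9 genes, 1 mouse stood apart from the others by more than Dixon's 95% critical value for 5 samples (gap to the nearest mouse as a share of the group's range). For normally distributed values chance flags about 1 in 20 groups. The test was run on CPM, not on log2 CPM, so this rate may not hold here. Groups of different genes also share their mice. FL1 replicate 2 in estrus had 6196 CPM of Cyp11a1 (next mouse 2244, share 0.793) and 2468 CPM of Fdx1 (next 781, share 0.854). FL1 replicate 1 in diestrus had 1766 CPM of Cyp11a1 (next 575, share 0.879), 616 CPM of Fdx1 (next 289, share 0.812) and 827 CPM of Scarb1 (next 636, share 0.851), and was the highest of its group for 6 of the 9 genes. Ctrl replicate 5 in diestrus had 306 CPM of Akr1c18 (next 141, share 0.792). The summed luteal markers without Akr1c18 were highest in the same FL1 mice, at 2497 CPM for replicate 2 in estrus and 2173 CPM for replicate 1 in diestrus. With Akr1c18 replicate 2 in estrus was not the highest (3121 CPM, against 4555 CPM in replicate 3). Replicate 1 in diestrus was also highest of its group for the erythroid (1292 CPM), smooth muscle (1140 CPM) and theca (1093 CPM) sums. The same held for its stromal (901 CPM), endothelial (83.3 CPM) and macrophage and leukocyte (68.6 CPM) sums. It was lowest for the GC (7496 CPM) and oocyte (69.2 CPM) sums. The part of these cells was not tested.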

How the results depend on the processing

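The number of the 9 genes called changed with the setting, while no fitted line or stage difference of the 9 genes changed direction. The cause was not tested. In estrus 3 genes were called, and 6 without the filter, 6 with DESeq2, 1 with robust estimation and 2 to 4 without 1 mouse. In diestrus 1 was called, and 3 without the filter, 2 with DESeq2 and 1 in each fit without 1 mouse. Between the stages, 1 was called in ctrl mice (4 without the filter, 3 with DESeq2, 0 to 1 without 1 mouse) and 0 in FL1 mice (5 without the filter, 2 with DESeq2, 1 in a fit of all 20 mice, 0 to 3 without 1 mouse, the 3 without FL1 replicate 1 in diestrus). The interaction called 0, and 1 without the filter. Over both stages 3 were called, and 5 without the filter, 6 with DESeq2 and 3 to 5 without 1 mouse. The only reversal was the interaction of Star, 0.13 with all mice and -0.30, -0.05, -0.02 and -0.08 without ctrl replicate 3 in estrus, ctrl replicate 1 in diestrus, FL1 replicate 1 in estrus and FL1 replicate 2 in diestrus (range over all such fits -0.30 to 0.39).

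Replicate numbers count different mice, and same-numbered mice did not deviate together (correlations of -0.116 to 0.117, at most 1 of 5 mice per comparison closest to its own number), so they share only a number. With the replicate number as a block, 0 of the 9 genes were called in diestrus (Star 2.31, adjusted p = 0.0904, edgeR), Fdx1 in estrus had an adjusted p of 0.0772, Akr1c18 in diestrus was at 1.02, Nceh1 lost its 3 calls and Lhcgr in estrus and Prlr over both stages lost theirs, and all genes called were 58 in estrus and 13 in diestrus.

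Over all genes, edgeR called 100 in estrus (373 without the filter, 310.0 with DESeq2, 66 without FL1 replicate 1), 32 in diestrus (3.34 times as many without the filter, 86 with DESeq2, 21 to 32 without 1 mouse), 175 between the stages in ctrl mice (348 and 423, 77 to 176 without 1 mouse), 29 in FL1 mice (299 and 225, 65 in a fit of all 20 mice, 13 to 178 without 1 mouse), 0 for the interaction (6 without the filter) and 181 over both stages (319 and 377, 139 to 209 without 1 mouse). Of the other pathway genes, 1 to 5 were called in estrus, 0 to 2 in diestrus, 2 to 5 and 0 to 6 between the stages in ctrl and FL1 mice, 0 for the interaction and 1 to 5 over both stages.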
